A study of Homo sapiens with 4 samples.

Results

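The genes described here are 10 regulators of apoptosis from the BCL2 family and the death receptor pathway: BCL2, BCL2L1, MCL1, BAK1, BCL2L11, BID, TNFRSF10A, TNFRSF10B, CFLAR and BIRC3. They were matched by gene symbol among the 16370 genes listed in the count tables. The rule uses no measured value, but the set was drawn up with earlier results of these data known. All 10 were listed for Huh7 and Huh7-C cells, and 9 for Hep3B and Hep3B-C cells, where BCL2 was not listed. The data were 4 mRNA sequencing libraries from human liver cancer cell lines. Hep3B and Huh7 are hepatoma lines and stand for hepatocellular carcinoma (HCC) cells. Hep3B-C and Huh7-C are cultures enriched for hepatic cancer stem cells (HCSC), each derived from the parental line of the same name. Each line had 1 library, so every comparison of an HCSC line with its parental line was a comparison of 2 libraries, with no replicate check, and its p-values cover counting noise only.

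Apoptosis, the programmed death of a cell, is started by 2 routes. In the mitochondrial route, BAK1 and its relatives form pores in the outer mitochondrial membrane. BCL2, BCL2L1 (BCL-XL) and MCL1 hold the pore formers in check, and BH3-only proteins such as BCL2L11 (BIM) and BID relieve that block. In the death receptor route, the ligand TRAIL binds TNFRSF10A (DR4) or TNFRSF10B (DR5), which recruit caspase-8, while CFLAR (c-FLIP) competes with caspase-8 at the receptor. Active caspase-8 cleaves BID, which links both routes. BIRC3 (cIAP2), a ubiquitin ligase of the inhibitor of apoptosis protein (IAP) family, is a classical target of NF-kB, as is CFLAR. Hepatocytes are known to depend on BCL2L1 and MCL1 for survival.

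The promoter windows of BIRC3, CFLAR and BAK1 are shown because BIRC3 and BAK1 carried the largest changes among the 10 genes, and CFLAR shares with BIRC3 its control by NF-kB. Each is the 250 bases upstream of an annotated start (RefSeq, GRCh38.p14), which is not the build to which the reads were aligned. RefSeq promoter windows matched 7 of the 10 genes. The capitals mark matches to GGA and TCCCC separated by any 2 bases, a pattern of the NF-kB type that was chosen after the windows had been read and was searched on both strands.
BIRC3, chr11:102317234-102317483, plus strand: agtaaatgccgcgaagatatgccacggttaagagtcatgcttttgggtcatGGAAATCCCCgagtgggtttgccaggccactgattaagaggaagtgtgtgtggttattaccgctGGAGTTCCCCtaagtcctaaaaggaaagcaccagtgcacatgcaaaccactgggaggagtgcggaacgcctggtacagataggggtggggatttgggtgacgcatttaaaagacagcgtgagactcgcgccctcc
CFLAR, chr2:201118466-201118715, plus strand: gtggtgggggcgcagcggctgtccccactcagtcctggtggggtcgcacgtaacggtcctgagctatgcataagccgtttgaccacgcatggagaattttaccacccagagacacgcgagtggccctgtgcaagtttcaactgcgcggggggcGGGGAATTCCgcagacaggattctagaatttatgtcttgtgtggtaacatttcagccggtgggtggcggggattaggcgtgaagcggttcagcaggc
BAK1, chr6:33580277-33580526, minus strand: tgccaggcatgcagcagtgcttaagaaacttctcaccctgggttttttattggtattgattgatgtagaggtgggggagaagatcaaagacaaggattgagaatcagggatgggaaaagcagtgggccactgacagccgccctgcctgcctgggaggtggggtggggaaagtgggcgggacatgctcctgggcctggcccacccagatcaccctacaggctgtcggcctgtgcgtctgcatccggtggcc

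The BIRC3 window held 2 matches, which began 199 and 135 bases before the start, both on the strand of the gene. CFLAR had 4 windows, of which the one shown held 1 match, on the opposite strand, 97 bases before the start, and the other 3 held none. The BAK1 window held none. Over all 34943 promoter windows of this length, 1.136% held at least 1 match and 0.046% held 2 or more. Of the 15 windows of the 7 matched genes, 2 held the pattern. Because the pattern was chosen after the windows had been read, setting them against the shares of all windows is no test of enrichment. A match describes the sequence and does not show binding in these cells.

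The total count assigned to genes ranged from 2896418 (Hep3B) to 4641927 (Hep3B-C). The precision of a level was set by its count, and the 95% intervals below are exact (Poisson for a level, binomial for a ratio) and cover counting error only. Levels between libraries are given in CPM (counts scaled to a common total gene count), and levels between genes in RPKM, the same measure divided by gene length. A gene was called up- or down-regulated where its log2 fold-change was at least 1 in size and its FDR (Benjamini–Hochberg, over every gene of the pair) was at most 0.01 in the Audic–Claverie test, a Poisson test of 2 counts. Of all genes, 43.6% were called in the Hep3B pair, 13.2% up and 30.4% down. In the Huh7 pair 8.33% were called, 4.19% up and 4.15% down. For genes with 20 or more counts, the log2 fold-change had its median at -0.55 in the Hep3B pair and at 0.06 in the Huh7 pair. With TMM scaling, which centres most genes near no change, those medians were 0.04 and 0.02. In the Hep3B pair the fold-change also moved with the base composition and length of the gene (Spearman's rho across genes 0.631 with GC content and -0.433 with length, genes not being independent replicates). In the Huh7 pair rho was -0.0589 with GC content and 0.315 with length.

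The 9 hepatocyte markers were all listed, although in Huh7 and Huh7-C AFP had only 26 and 12 counts and TTR 13 and 13. ALB stood at 106.2 CPM in Huh7 and 266.7 CPM in Huh7-C, against 19540 CPM in Hep3B and 18470 CPM in Hep3B-C. In Hep3B-C 3 of the 9 markers were up- and 3 down-regulated, among them APOA1 (log2 fold-change 2.36) and AFP (-2.63). In Huh7-C 1 of the 9 was up- and 3 were down-regulated. Their summed level went from 57670 CPM in Hep3B to 62660 in Hep3B-C and from 50130 in Huh7 to 26760 in Huh7-C. Of the HCSC surface markers, PROM1 (CD133) was down-regulated in Hep3B-C cells (log2 fold-change -2.26), as was EPCAM (-1.54), and neither was called in Huh7-C (-0.31 and 0.17). EPCAM was at -0.95 with TMM scaling and PROM1 at -0.72 after removal of the GC and length trends, both short of the fold threshold. THY1 (CD90) had at most 1 count in the Huh7 pair and was not listed for the Hep3B pair. Of 7 immune markers 4 were listed, with a summed level of 187.1 to 450.7 CPM that came from LYZ and CD68, while PTPRC and CD3E were in no table and CD14 and CD79A had at most 6 counts. CD68 was up-regulated in Hep3B-C (1.44). Endothelial and fibroblast markers summed to at most 21.5 CPM and 15.0 CPM in any library. PECAM1 (17 and 93 counts) and COL3A1 (0 and 58 counts) were higher in Huh7-C than in Huh7. Their part in the results below was not tested. In bulk RNA, fewer cells of a kind and less RNA per cell cannot be told apart.

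Among the 9 genes tested in Hep3B-C cells (vs. Hep3B), 1 was up-regulated, the pore former BAK1, and 2 were down-regulated, BIRC3 and BCL2L11. This 3 of 9 stood against 43.6% of all genes called in that pair. Among the 10 genes tested in Huh7-C cells (vs. Huh7), 2 were up-regulated, BIRC3 and TNFRSF10A, and none was down-regulated, against 8.33% of all genes. BIRC3 was called in both pairs, in opposite directions. The median log2 fold-change of the listed genes was -0.74 in the Hep3B pair and -0.04 in the Huh7 pair.

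**Figure D1:**
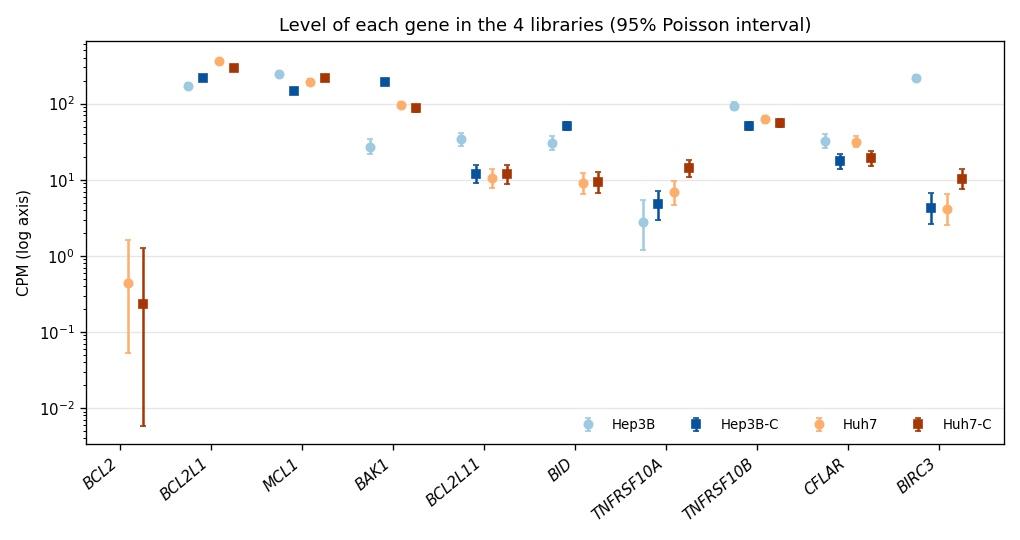
Level of each of the 10 genes in the 4 libraries, in CPM on a log axis, with bars for the exact Poisson 95% interval. Circles are parental HCC lines and squares HCSC lines. BIRC3 stood at 217.2 CPM in Hep3B and at 4.19 to 10.4 CPM in the other 3 libraries, and BAK1 was lowest in Hep3B and highest in Hep3B-C.

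BCL2L1, which guards the mitochondrial membrane against the pore formers, had 491 counts in Hep3B (169.5 CPM), 1006 in Hep3B-C (216.7 CPM), 1672 in Huh7 (368.5 CPM) and 1273 in Huh7-C (293.7 CPM). Both Huh7 lines thus exceeded both Hep3B lines, and each neighbour in this order differed beyond counting error, the smallest step being 1.25-fold (95% interval 1.17 to 1.35) from Huh7-C up to Huh7. Within the pairs neither difference reached the fold threshold, with log2 fold-changes of 0.35 ± 0.08 (Poisson SE) in Hep3B-C (FDR 1.66e-05) and -0.33 ± 0.05 in Huh7-C (FDR 9.41e-09). The Hep3B-C value depended on the scaling, at 0.95 with TMM, at 1.03 and called up-regulated with DESeq2 size factors (FDR 4.05e-40), and at 0.09 after removal of the GC and length trends.

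MCL1, a short-lived protein that sequesters BAK1 and BCL2L11, had 712 counts in Hep3B (245.8 CPM), 681 in Hep3B-C (146.7 CPM), 886 in Huh7 (195.3 CPM) and 944 in Huh7-C (217.8 CPM). It had the narrowest spread of the 9 genes found in all libraries, 1.68-fold from lowest to highest. The log2 fold-change was -0.74 ± 0.08 in Hep3B-C (FDR 4.36e-21) and 0.16 ± 0.07 in Huh7-C (FDR 0.0586), neither of them called. The Hep3B-C value was close to the median of all genes in that pair, and it was -0.15 with TMM scaling and 0.57 after removal of the GC and length trends, so no direction is given for it.

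BCL2, the founding member of the family, had 2 counts in Huh7 and 1 in Huh7-C (0.441 and 0.231 CPM). Both lay under 3 counts, the limit that a count of 0 would allow, so no comparison could be made at this depth.

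Per length, BCL2L1 reached 66.2 RPKM in Hep3B and 84.7 in Hep3B-C, against 144.0 in Huh7 and 114.8 in Huh7-C. The RPKM ratio of BCL2L1 to MCL1 was 1.08 in Hep3B (95% interval 0.959 to 1.21), 2.31 in Hep3B-C (2.09 to 2.55), 2.95 in Huh7 (2.72 to 3.20) and 2.11 in Huh7-C (1.94 to 2.30). By these counts Hep3B was thus the line in which the 2 transcripts could not be told apart per length, and BCL2L1 exceeded MCL1 in the other 3. The intervals do not cover the GC and length trend of the Hep3B pair, fitted at 0.27 for BCL2L1 and -1.315 for MCL1. After its removal the log2 fold-changes in Hep3B-C were 0.09 and 0.57. No direction is therefore given for the change of this ratio from Hep3B to Hep3B-C. The tables give 1 count per gene, so the long and short splice forms of BCL2L1, MCL1 and CFLAR, which can act in opposite ways, were not separated.

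BAK1, which forms pores in the outer mitochondrial membrane, had 79 counts in Hep3B (27.3 CPM, 95% interval 21.6 to 34.0), 895 in Hep3B-C (192.8 CPM, 180.4 to 205.9), 436 in Huh7 (96.1 CPM, 87.3 to 105.5) and 378 in Huh7-C (87.2 CPM, 78.7 to 96.5). Hep3B-C was highest and Hep3B lowest, and Huh7 and Huh7-C, which lay between them, could not be told apart (ratio 1.10, 0.958 to 1.27). In Hep3B-C cells BAK1 was up-regulated 7.03-fold (log2 fold-change 2.81 ± 0.17, FDR 1.93e-102), at percentile 98.0 of all genes of the pair with at least 20 counts. BAK1 stayed called with TMM scaling (3.41) and after removal of the GC and length trends (2.04), the fitted trend for its GC content (58.8%) and length being 0.78. It was not called when a biological coefficient of variation of 0.4 was assumed in edgeR's exact test (FDR 0.0419). In Huh7-C cells its log2 fold-change was -0.14 ± 0.10 (FDR 0.325). BAK1 has processed pseudogene copies, and the treatment of reads that match several places is not given in the sources used here.

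Set against its inhibitors per length, BAK1 had 0.188 of the RPKM of BCL2L1 in Hep3B (95% interval 0.146 to 0.239) and 1.04 in Hep3B-C (0.948 to 1.14). In Huh7 and Huh7-C this ratio was 0.304 (0.273 to 0.338) and 0.347 (0.308 to 0.389). The summed RPKM of BCL2, BCL2L1 and MCL1 exceeded that of BAK1 by 10.3-fold in Hep3B, 1.38-fold in Hep3B-C, 4.402-fold in Huh7 and 4.26-fold in Huh7-C. By these counts Hep3B and Hep3B-C held the extremes of the ratio, with both Huh7 lines between them. The intervals do not cover the GC and length trend of the Hep3B pair. It was fitted at 0.78 for BAK1, 0.27 for BCL2L1 and -1.315 for MCL1. After its removal the log2 fold-changes in Hep3B-C were 2.04, 0.09 and 0.57. BAK1 thus still rose more than its inhibitors, but by a smaller margin, and the order of the libraries was not recomputed. All these ratios are of transcripts and not of proteins.

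**Figure D2:**
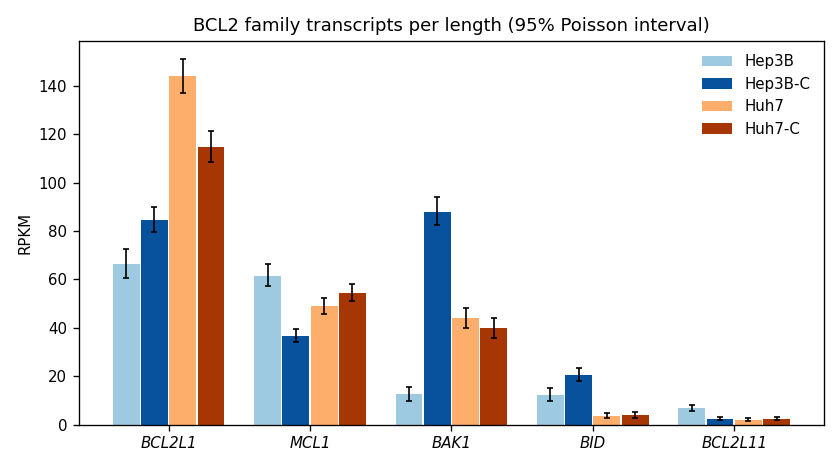
RPKM of 5 BCL2 family genes in the 4 libraries, as bars from 0 with the exact Poisson 95% interval. Scaled to total counts, BAK1 rose from 12.4 RPKM in Hep3B to 87.9 in Hep3B-C, level with BCL2L1 (84.7). BID and BCL2L11 stayed at or below 20.5 RPKM. The GC and length trends of the Hep3B pair were not removed here.

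The BH3-only genes were expressed at lower levels. BCL2L11, an activator that binds every anti-apoptotic member, had 99 counts in Hep3B (34.2 CPM, 27.8 to 41.6), 56 in Hep3B-C (12.1 CPM, 9.11 to 15.7), 48 in Huh7 (10.6 CPM, 7.80 to 14.03) and 51 in Huh7-C (11.8 CPM, 8.76 to 15.5). Hep3B alone stood above the rest, 2.83-fold over Hep3B-C (95% interval 2.02 to 4.01), and no difference among the other 3 was detectable at this depth. BCL2L11 was down-regulated in Hep3B-C cells (log2 fold-change -1.50 ± 0.24, FDR 5.11e-10). That call was lost with TMM scaling (-0.90), and after removal of the GC and length trends the value was -0.04. In Huh7-C the log2 fold-change was 0.15.

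BID, the substrate of caspase-8 that carries the signal to mitochondria, had 88 counts in Hep3B (30.4 CPM), 237 in Hep3B-C (51.1 CPM), 41 in Huh7 (9.04 CPM) and 41 in Huh7-C (9.46 CPM). Both Hep3B lines were above both Huh7 lines, and the step from Huh7-C to Hep3B was 3.21-fold (2.19 to 4.77). BID did not reach the fold threshold in Hep3B-C (log2 fold-change 0.74 ± 0.18, FDR 4.96e-05), but was called up-regulated with TMM scaling (1.34) and after removal of the GC and length trends (1.13). In Huh7-C it was 0.07 ± 0.32. The RPKM ratio of BID to BCL2L11 was 1.82 in Hep3B, 8.67 in Hep3B-C (6.45 to 11.8), 1.75 in Huh7 and 1.65 in Huh7-C, so only the interval of Hep3B-C did not overlap those of the other 3. These intervals do not cover the GC and length trend of the Hep3B pair, fitted at -0.39 for BID and -1.45 for BCL2L11.

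Of the TRAIL receptors, TNFRSF10A was the scarcer in every library. It had 8 counts in Hep3B (2.76 CPM), 22 in Hep3B-C (4.74 CPM), 31 in Huh7 (6.83 CPM) and 61 in Huh7-C (14.1 CPM). Huh7-C stood above Huh7 by 2.06-fold (95% interval 1.32 to 3.29), and the other 3 libraries formed an order in which no neighbours differed beyond counting error. TNFRSF10A was up-regulated in Huh7-C cells (log2 fold-change 1.03 ± 0.32, FDR 0.00437), just past the fold threshold. The call was lost with TMM scaling (0.99), with DESeq2 size factors (0.97) and with 5 added to each count (0.94). In Hep3B-C the log2 fold-change was 0.72 ± 0.58 (FDR 0.329), on 8 and 22 counts.

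TNFRSF10B had 270 counts in Hep3B (93.2 CPM), 236 in Hep3B-C (50.8 CPM), 282 in Huh7 (62.2 CPM) and 240 in Huh7-C (55.4 CPM). Hep3B was higher than Huh7 by 1.50-fold (1.27 to 1.78), and no neighbours among the other 3 libraries differed beyond counting error. It was not called in either pair, with log2 fold-changes of -0.87 ± 0.13 in Hep3B-C (FDR 3.49e-11) and -0.17 in Huh7-C. With TMM scaling the Hep3B-C value was -0.28, and with the length trend removed it was 0.04. Per length, TNFRSF10B exceeded TNFRSF10A 13.9-fold in Hep3B (6.95 to 32.5), 4.42-fold in Hep3B-C (2.85 to 7.18), 3.74-fold in Huh7 (2.58 to 5.62) and 1.62-fold in Huh7-C (1.22 to 2.18). The Hep3B ratio rested on 8 counts of TNFRSF10A. The GC and length trend fitted in the Hep3B pair was -0.79 for TNFRSF10B and 0.27 for TNFRSF10A. After its removal the log2 fold-changes in Hep3B-C were -0.09 and 0.46.

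CFLAR, the inhibitor of caspase-8 activation, had 93 counts in Hep3B (32.1 CPM), 81 in Hep3B-C (17.5 CPM), 144 in Huh7 (31.7 CPM) and 83 in Huh7-C (19.2 CPM). Both HCSC libraries were below both parental libraries, as they also were for TNFRSF10B, which makes 2 of the 9 genes against 16.9% of all genes listed in both pairs. For CFLAR the parental lines did not differ from each other beyond counting error (ratio 1.01, 0.771 to 1.32), nor did the HCSC lines (1.10, 0.798 to 1.51), and the step between the groups was 1.66-fold (1.26 to 2.20). CFLAR did not reach the fold threshold in either pair, with log2 fold-changes of -0.88 ± 0.22 in Hep3B-C (FDR 0.000126) and -0.73 ± 0.20 in Huh7-C (FDR 0.000934). With TMM scaling these were -0.28 and -0.77, so the Hep3B-C value lay near the centre of all genes in that scaling. For Hep3B-C and Huh7-C they were -0.80 and -0.63 with the length trend removed. After removal of the GC and length trends they were -0.62 and -0.58.

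BIRC3 varied most of the 10 genes, 51.9-fold from the lowest to the highest library. It had 629 counts in Hep3B (217.2 CPM, 95% interval 200.5 to 234.8), 20 in Hep3B-C (4.31 CPM, 2.63 to 6.65), 19 in Huh7 (4.19 CPM, 2.52 to 6.54) and 45 in Huh7-C (10.4 CPM, 7.57 to 13.9). Hep3B alone was high, 20.9-fold above Huh7-C (15.5 to 28.97), and Hep3B-C and Huh7 could not be told apart (ratio 1.03, 0.521 to 2.04). In Hep3B-C cells BIRC3 was down-regulated 49.2-fold (log2 fold-change -5.62 ± 0.32, FDR 1.34e-226), at percentile 0.376 of all genes of the pair with at least 20 counts.

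The gene is poor in GC (34.8%) and long (5229 bases), and the fitted GC and length trend of the Hep3B pair gave it -2.08. With that part removed BIRC3 was still down-regulated (-3.54), as it was with TMM scaling (-5.03). It was the single one of the 9 genes that stayed called with an assumed biological coefficient of variation of 0.4 (FDR 6.81e-05). In Huh7-C cells BIRC3 was up-regulated (log2 fold-change 1.29 ± 0.39, FDR 0.00338). That call rested on 19 and 45 counts and was lost with the length trend removed (1.07, FDR 0.0219), with the GC and length trends removed (1.03, FDR 0.0292) and with the assumed coefficient of variation (FDR 1.0).

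**Figure D3:**
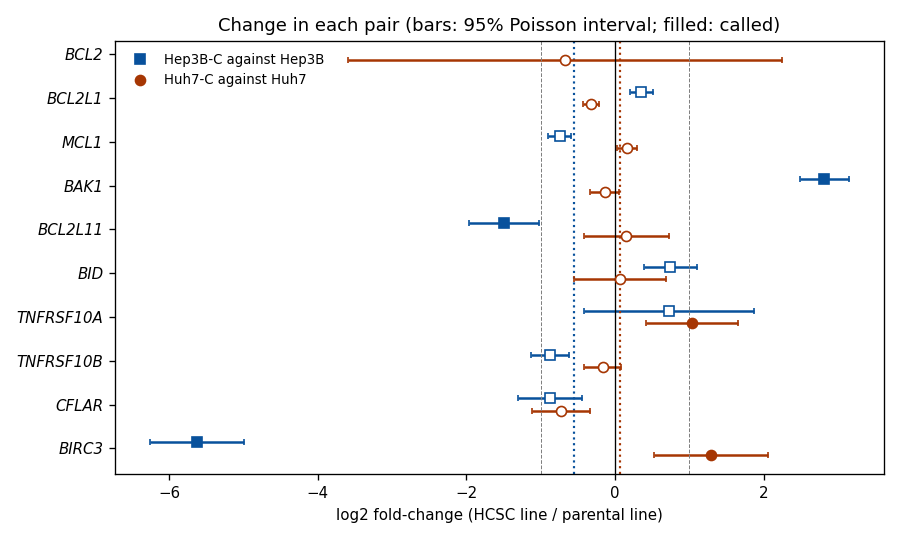
Log2 fold-change of each gene in Hep3B-C against Hep3B (squares) and in Huh7-C against Huh7 (circles), with bars for the 95% Poisson interval and filled symbols for called genes. Dashed lines mark the fold threshold and dotted lines each pair's median over genes of 20 or more counts. BIRC3 is filled on both sides of 0, at -5.62 and 1.29.

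Whether a gene responded differently in the 2 pairs was tested by a Wald test of the difference of the log2 fold-changes, adjusted over the 13917 genes listed in both pairs and called at an FDR of at most 0.01 and an absolute difference of at least 1. Of all genes tested, 39.9% were called. Of the 9 genes described here, 3 were called. The difference, Hep3B-C minus Huh7-C, was -6.91 ± 0.51 for BIRC3 (FDR 5.69e-41), 2.95 ± 0.20 for BAK1 (FDR 2.01e-49) and -1.65 ± 0.38 for BCL2L11 (FDR 3.20e-05). BIRC3 and BAK1 kept the call under each of the 4 other settings, with differences of -6.47 to -4.57 for BIRC3 and 2.07 to 3.59 for BAK1. BCL2L11 lost it with TMM scaling (-1.01, FDR 0.0145) and after removal of the GC and length trends (0.02). BCL2L1 (0.68) and BID (0.68) were not called, but both passed with TMM scaling (1.32 and 1.31). CFLAR differed by -0.15 ± 0.30 (FDR 0.682) and TNFRSF10A by -0.31 ± 0.66 (FDR 0.717).

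**Figure D4:**
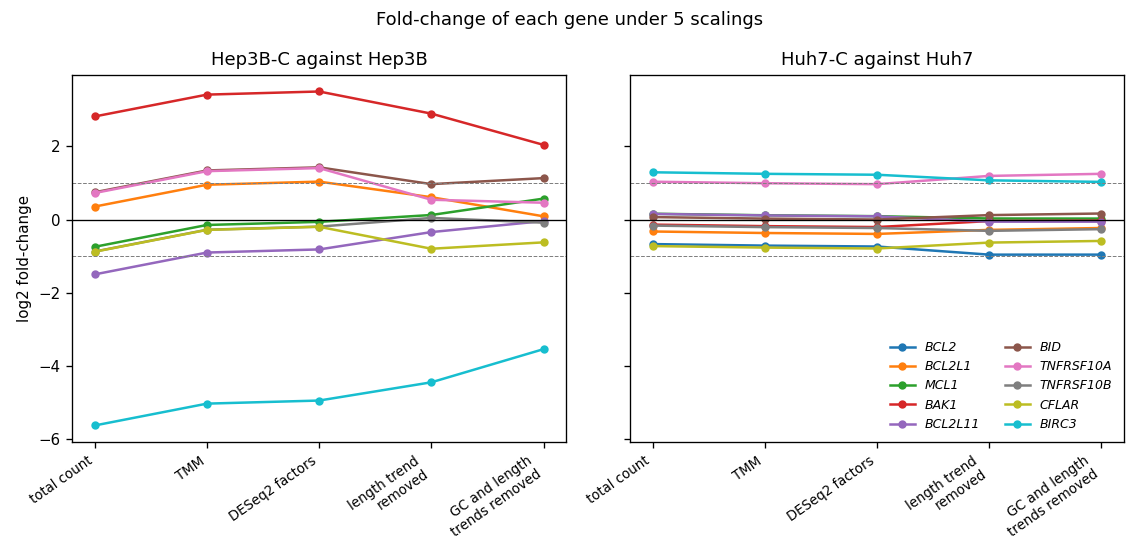
Log2 fold-change of each gene in the Hep3B pair (left) and the Huh7 pair (right) under 5 scalings, from the total gene count to removal of the GC and length trends. Dashed lines mark the fold threshold. In the Hep3B pair BAK1 stayed above 2 and BIRC3 below -3.5 throughout, while BCL2L11 moved from -1.50 to -0.04.

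The comparison of HCSC with HCC lines over both parental lines was the one test with spread between samples. It was an edgeR quasi-likelihood fit of the 4 libraries blocked on the parental line, so that 1 residual degree of freedom remained. At an FDR of at most 0.05 it called 9 of 11691 genes (0.077%) and none of the 9 genes described here that passed the filter on low counts, BCL2 having been removed. None of the 9 had an unadjusted p under 0.05, and all had an FDR of 0.999. DESeq2 called none of them either, but it gave TNFRSF10A no FDR and so could not call that gene. In the edgeR fit the log2 fold-changes were as follows. BIRC3 had a log2 fold-change of -2.05, BAK1 of 1.50 and TNFRSF10A of 1.07. CFLAR, with both HCSC libraries below both parental libraries, had -0.63.

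The rest of the pathway was described through 12 lists by role, 68 genes in all, of which 58 were outside the 10 described above. In the Hep3B pair 54 of these 58 were listed, with 8 up- and 13 down-regulated, against 13.2% up and 30.4% down over all genes. In the Huh7 pair 52 were listed, with 3 up- and 4 down-regulated, against 4.19% and 4.15%. The lists by role below hold few genes each and are read against the same shares. With the assumed coefficient of variation, no list but that of the IAP family held a called gene in either pair. The median log2 fold-change was -0.34 over the 63 of the 68 genes that were listed in the Hep3B pair. It was -0.08 over the 62 listed in the Huh7 pair. These medians include genes with few counts. All genes with at least 20 counts had medians of -0.55 in the Hep3B pair and 0.06 in the Huh7 pair.

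All 3 pore-forming effectors were up-regulated in Hep3B-C cells, where 13.2% of all genes were. BAX, the partner of BAK1, had 63 counts in Hep3B and 331 in Hep3B-C, against 101 in Huh7 and 131 in Huh7-C, with log2 fold-changes of 1.70 in Hep3B-C and 0.44 in Huh7-C. BOK, the third family member of this kind, had 69, 507, 134 and 72 counts in the same order, with log2 fold-changes of 2.19 and -0.83. None of the 3 was called in Huh7-C. After removal of the GC and length trends, 2 of the 3 stayed called in Hep3B-C, BAX being at 0.44, and with the assumed coefficient of variation none did. None of the anti-apoptotic BCL2 proteins was called in either pair, apart from BCL2L1 in Hep3B-C with DESeq2 size factors.

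Among the BH3-only genes, 1 was up- and 2 were down-regulated of 7 in the Hep3B pair, and 1 was down-regulated of 8 in the Huh7 pair, near the shares of all genes called (43.6% and 8.33%). BMF, known for its link to the cytoskeleton, was the one called in both pairs. It had 673 counts in Hep3B and 159 in Hep3B-C (log2 fold-change -2.76), and 71 in Huh7 and 19 in Huh7-C (-1.81). Neither call of BMF held with the assumed coefficient of variation. BAD, an antagonist of BCL2L1 named after its values were seen, was up-regulated in Hep3B-C (1.10) and stood at -0.67 in Huh7-C, but its Hep3B-C value turned to -0.43 after removal of the GC and length trends.

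Of the death receptors, TNFRSF21 (DR6) was called in both pairs, in opposite directions. It had 197 counts in Hep3B and 66 in Hep3B-C (log2 fold-change -2.25), and 415 in Huh7 and 934 in Huh7-C (1.24). TNFRSF1A, the main receptor of TNF, was named after its values were seen and was up-regulated in Hep3B-C (1.26), with 0.08 in Huh7-C. It was not called after removal of the GC and length trends (0.61). FAS had 1 count in Huh7, none in Huh7-C, and was not listed for the Hep3B pair. The ligand TNFSF10 (TRAIL) fell from 148 counts in Huh7 to 36 in Huh7-C (-1.96), and had 10 and 6 counts in Hep3B and Hep3B-C (-1.37, FDR 0.0764). Scaled to total counts, none of the decoy receptors and none of the 7 adaptors and initiators at the receptor was called in either pair. The decoy receptor TNFRSF10D, named after its values were seen, lay close to the threshold in Huh7-C (-0.97) and was called down-regulated with TMM scaling (-1.01), and in Hep3B-C it was called up-regulated after removal of the GC and length trends (1.28). In Hep3B-C 1 of the adaptors and initiators was called up with TMM and 2 with DESeq2 size factors.

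In the IAP family 5 of 7 genes were down-regulated in Hep3B-C cells, BIRC3 among them, and 2 of 6 were up-regulated in Huh7-C cells, against 30.4% down and 4.19% up over all genes of these pairs. BIRC6, a giant ubiquitin ligase, was called in both pairs, with 640 counts in Hep3B and 288 in Hep3B-C (log2 fold-change -1.83), and 266 in Huh7 and 717 in Huh7-C (1.50). The remaining 3 were named after their values were seen. They were BIRC2 (cIAP1, the closest relative of BIRC3, -2.43), XIAP (the direct inhibitor of caspases, -1.77) and NAIP (-3.99), which has near-identical copies in the genome. After removal of the GC and length trends, 2 of the 5 stayed called in Hep3B-C and none of the 2 in Huh7-C, and in Hep3B-C XIAP (0.47) and BIRC6 (0.74) turned positive. With the assumed coefficient of variation 2 of the 5 stayed called. Of the IAP antagonists released from mitochondria, DIABLO (1.03) and HTRA2 (1.50) were both up-regulated in Hep3B-C, and neither was called after removal of the GC and length trends (0.56 and 0.71).

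Downstream, APAF1, the scaffold of the apoptosome, was down-regulated in Hep3B-C, from 154 counts in Hep3B to 45 (-2.44), and had 73 counts in Huh7 and 97 in Huh7-C (0.47). Its call did not hold after removal of the GC and length trends (-0.48). Of the 12 NF-kB factors, kinases and inhibitors, 2 were up- and 3 were down-regulated in Hep3B-C and 1 was down-regulated in Huh7-C, close to the shares over all genes (43.6% and 8.33% called). TNFAIP3 (A20), which is induced by NF-kB and restrains it, was down-regulated in both pairs, from 353 counts in Hep3B to 67 in Hep3B-C (-3.07) and from 59 in Huh7 to 15 in Huh7-C (-1.87). TNFAIP3 thus had the direction of BIRC3 in the Hep3B pair and the opposite one in the Huh7 pair. The other 4 called in Hep3B-C, named after their values were seen, were NFKB2 (1.23) and IKBKG (1.17), which were up-regulated, and REL (-2.64) and CHUK (-1.48), which were down-regulated. After removal of the GC and length trends REL kept its call (-1.55), while NFKB2 (0.57) and IKBKG (0.15) lost theirs and CHUK, not called with TMM either (-0.89), turned to 0.15. Among 3 genes that control MCL1 stability, the ligase subunit FBXW7 (-1.87) and the deubiquitinase USP9X (-1.46) were down-regulated in Hep3B-C. After removal of the GC and length trends FBXW7 was no longer called (-0.21) and USP9X turned to 1.08. HUWE1, a ligase of MCL1 named after its values were seen, was up-regulated in Huh7-C (1.31), with 0.58 after removal of the trends.

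**Figure D5:**
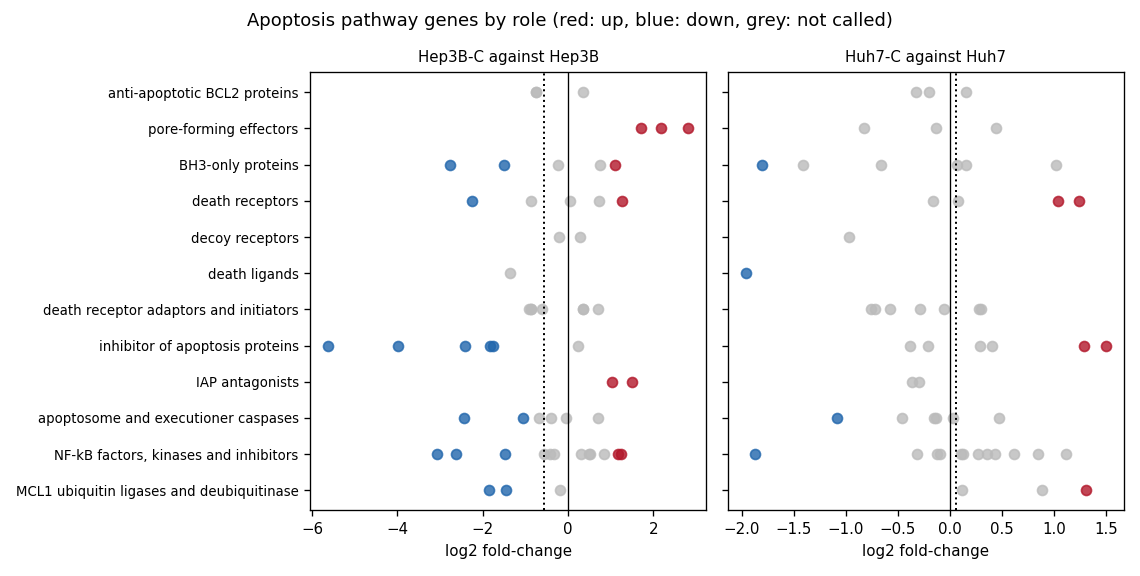
Log2 fold-change of the genes of the 12 pathway lists with at least 10 counts in the pair, 1 point a gene, in Hep3B-C against Hep3B (left) and Huh7-C against Huh7 (right), with different horizontal scales. Dotted lines mark the median of all genes with at least 20 counts (-0.55 and 0.06). All 3 pore-forming effectors are red in the Hep3B pair, and 5 IAP genes are blue.

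The genes most like BIRC3, BAK1 and BID, the 3 genes with the widest range, were sought among 7728 genes by the Euclidean distance of log2(CPM + 0.5), centred over the 4 libraries. For BIRC3 they were COL5A2 (distance 1.27), with 509 counts in Hep3B and 37 in Hep3B-C, against 56 in Huh7 and 83 in Huh7-C, and SPDYE7P (1.33). For BAK1 they were FAM125A (0.161), with 38, 377, 194 and 163 counts in the same order, and COQ4 (0.168). For BID they were ARHGEF2 (0.130) and SALL2 (0.197). With 4 libraries many genes share a pattern, so these names describe likeness of levels only.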

How the data were processed

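The 4 libraries (Hep3B, Huh7, Hep3B-C and Huh7-C, 1 each) were read on an Illumina Genome Analyzer II instrument. Adapters and poor reads were removed by the authors, who aligned the rest with NextGENe to NCBI Build 36.1 and deposited raw read counts per gene with the gene length. The annotation and the treatment of reads that match several places are not given in the sources used here. The tables of each pair list the same genes (15480 in the Hep3B pair, 14807 in the Huh7 pair), each with at least 1 count in the pair. Total gene counts ranged from 2896418 to 4641927, so that 3 counts, the limit a count of 0 allows, stood for 0.646 to 1.04 CPM.

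Samples were grouped by their titles. The genes, pathway lists and markers were chosen with earlier results of these data known. From the pathway lists, genes called in both pairs were named, or else up to 2 with the largest fold-change among those with at least 50 counts, and only where called. Others are marked in the text as named after their values were seen. Some genes of the lists are not reported here by name.

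Within a pair, the log2 ratio of (count + 0.5) per total gene count was taken with its Poisson SE, and the 2 counts were compared by the two-sided Audic–Claverie test with Benjamini–Hochberg adjustment over every gene of the pair. Neighbouring levels were compared by exact binomial 95% intervals. Over both pairs, edgeR 4.0.16 (quasi-likelihood, TMM, filterByExpr) was fitted with the parental line as block. The block was kept because each HCSC line came from its parental line, and deviations from the group means correlated at r = 0.302 over 9565 genes. GC content came from the GENCODE release 29 transcript nearest in length (99.2% and 99.3% of genes with at least 20 counts). Alternatives were TMM, DESeq2 1.42.0 size factors and Wald test, 5 added to each count, a minimum of 10 counts, edgeR's exact test with an assumed biological coefficient of variation of 0.4, removal of length or of GC and length trends by splines, no block, no filter and leaving out each sample. The tests were checked on simulated data with less spread between libraries than these have, so the check does not cover that spread. R 4.3.3, Python 3.11.15 and SciPy 1.17.1 were used.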

Additional observations from a re-analysis of the deposited data

Results flagged for a closer look

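For 3 genes the log2 fold-change differed between the Hep3B and the Huh7 pair by the Wald test of that difference, which covers the counting noise of 4 libraries and called 39.9% of all genes. The difference, Hep3B-C minus Huh7-C, was -6.91 for BIRC3, with 629 and 20 counts in Hep3B and Hep3B-C and 19 and 45 in Huh7 and Huh7-C. It was 2.95 for BAK1, with 79 and 895 counts in the Hep3B pair and 436 and 378 in the Huh7 pair. It was -1.65 for BCL2L11, with 99 and 56 counts in the Hep3B pair and 48 and 51 in the Huh7 pair. For BCL2L11 the difference was -0.28 without the length trend and 0.0169 without the trends of GC content and length.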

How the results depend on the processing

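In the Hep3B pair, where 1 gene was up- and 2 were down-regulated, TMM scaling gave 2 up and 1 down and DESeq2 size factors 3 up and 1 down. Removal of the GC and length trends gave 2 up and 1 down, removal of the length trend 1 up and 1 down, and the assumed coefficient of variation 0 up and 1 down. In the Huh7 pair, where 2 were up-regulated, the assumed coefficient of variation left 0, and 1 was called with TMM, DESeq2 size factors, 5 added to each count, or either trend removal. In Hep3B-C the sign turned with the length trend removed for MCL1 (0.12), TNFRSF10B (0.0439), BIRC6 (0.39), USP9X (0.55) and HUWE1 (2.04), and without the trends of GC content and length for MCL1 (0.57), BIRC6 (0.74), USP9X (1.08), XIAP (0.47), CHUK (0.15), HUWE1 (1.56) and BAD (-0.43). HUWE1 (-0.18) also turned with TMM (0.41) and DESeq2 size factors (0.50). In Huh7-C it turned for BCL2L11 (-0.0592 and -0.0597), FBXW7 (-0.00871 and -0.0224) and XIAP (-0.00196, GC and length). The difference between the pairs turned for MCL1 (0.0951 and 0.55), TNFRSF10B (0.35 and 0.18) and BCL2L11 (0.0169, GC and length), and with TMM for CFLAR (0.48) and TNFRSF10A (0.33). The cause of these turns was not tested beyond the fitted trends themselves.

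In the fit over both parental lines, none of the genes was called under any of the 8 alternatives. The DESeq2 Wald test gave no FDR for BCL2 and TNFRSF10A, so it could not call them. Without the replicate block, edgeR called 0 genes in all, and 1 of the 9 had an unadjusted p under 0.05, BIRC3 (log2 fold-change -3.68). Leaving out 1 library, without the block, called 0 to 21 genes (21 without Hep3B-C, 18 without Huh7-C) and 0 of the 9 each time. It turned the sign for BCL2L1 (-0.48 without Hep3B, -0.0900 without Huh7-C), BCL2L11 (0.24 without Hep3B), BIRC3 (0.83 without Hep3B), MCL1 (0.0735 without Hep3B-C) and BID (-0.91 without Hep3B-C). With 1 library per line, nothing separates a line's response from the variation between cultures, and low counts (BCL2, TNFRSF10A, BIRC3 outside Hep3B, BID and BCL2L11 in the Huh7 lines) limit precision.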
